A study of Mus musculus with 2 samples.

Results

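The cells described here are endothelial cells of the mouse lung that carried transcripts of 4 interferon-inducible genes, Serpina3f, Serpina3g, Il18bp and Ubd, and little of the genes of arterial, venous or Car4 Ednrb capillary cells. They were chosen by counts of unique molecular identifiers (UMIs, 1 per captured transcript). A cell needed at least 500 genes and at most 10% mitochondrial UMIs. It also needed at least 3 UMIs over the endothelial genes Pecam1, Cdh5, Cldn5, Egfl7 and Ramp2, more of these than of the mesenchymal genes Col1a1, Col1a2, Col3a1, Mfap4 and Bgn, and Sftpc under 5% of its UMIs. The 4-gene sum had to reach 3 UMIs, and each of 3 sums had to stay under 3 UMIs: Car4 and Ednrb; Gja5, Efnb2, Esm1 and Cxcr4; Prss23, Vegfc, Cpe and Ackr3. The rule found 278 cells of 3410, 79 from the niche and 199 from the distal library. Cells that met every other condition but had a 4-gene sum under 3, 184 in niche and 641 in distal cells, are called other capillary-type cells.

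The series consists of 2 single-cell RNA libraries of lung cells labelled CD45-, the fraction without the leukocyte surface protein CD45. Both come from mouse lungs taken 7 days after Labelling-4T1 cells were given intravenously; 4T1 cells are a breast cancer line of the mouse and can form lung metastases. One library is labelled as niche cells and the other as distal lung cells, so the distal library also comes from injected animals, and uninjected lung was not analysed here. The submitters name the niche counts 4T1_CherryPositive and the distal counts 4T1_CherryNegative, and how the cells were sorted was not examined here. The labels used here give no strain, age or number of animals, and with 1 library per label no difference between them has a replicate check. All intervals below are 95% intervals for counting error only.

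Interferons bind receptors that signal through JAK kinases and switch on GTPases of the guanylate-binding (GBP) and immunity-related (IRG) families, antiviral genes, antigen presentation and the chemokines CXCL9 and CXCL10. Type II interferon acts largely through gamma-activated sites (GAS), type I interferon through interferon-stimulated response elements (ISRE), and many genes answer to both. Lung capillaries hold general capillary cells, marked by Gpihbp1, Plvap and Kit, and large Car4-bearing cells that lie against the alveolar epithelium.

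Barcodes numbered 1473 for the niche and 1996 for the distal cells, of which 1423 and 1987 passed. The libraries held 5283584 and 4791701 UMIs, and 7 barcodes occurred in both, none of them a member. Endothelial cells numbered 500 and 1314. Members had a median of 2707 UMIs in niche and 1914 in distal cells, against 1970 and 1406 in other capillary-type cells, so a fixed count of 3 UMIs was easier to reach in deeper cells. Doublet calling marked 1 member in each library. Among niche members, 5 cells had at least 3 UMIs of lymphatic endothelial genes, 3 had at least 10 haemoglobin UMIs and 1 had 12 UMIs of immune markers, 9 cells in all. As for the label, Gpihbp1 was detected in 65 of 79 niche and 195 of 199 distal members, Plvap in 73 and 191, and Kit in 32 and 89. Alveolar type 2 cells, which should lack these genes and were deeper (medians of 5614 and 5440 UMIs), had a Gpihbp1 UMI in 2 of 16 niche and 60 of 214 distal cells, a Plvap UMI in 1 and 54, and a Kit UMI in 0 (which allows up to 18.75%) and 6. The general capillary markers were thus detected in a larger share of members than of these cells. Transcript levels at 1 time do not measure priming. No distal member carried the marks of other cell types, although the distal table listed only 3 of the 6 lymphatic genes used. The haemoglobin genes Hba-a1, Hba-a2 and Hbb-bt were not listed there either, so the 2 libraries were not screened equally for these marks.

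Members made up 15.8% of niche endothelial cells (12.7 to 19.3%) and 15.1% of distal endothelial cells (13.2 to 17.2%), so the shares did not differ beyond counting error. With every cell thinned to 1200 UMIs and reclassified, the shares were 12.7% (62 of 489, 9.86 to 15.96%) and 14.7% (149 of 1014, 12.6 to 17.0%). Thinning left out 295 distal endothelial cells and 0 niche endothelial cells that passed the gene and mitochondrial limits. The limit of 3 UMIs sat on a continuous slope of the 4-gene sum. In the niche, 104 of 263 capillary-type cells (members and others together) had a sum of 0, 47 had 1, 33 had 2 and 15 had 3; in the distal library the numbers were 368, 178, 95 and 48 of 840. The highest sums were 90 and 56 UMIs, and the median member had 6 and 5. Cells at a sum of 3 and cells at 2 were close to each other in several genes outside the rule. The Iigp1 level at 3 was 829 CPM (UMIs scaled to 1e+06 over the genes listed in both tables) against 638 CPM at 2 in the niche, and 997 against 743 CPM in the distal library. Ly6a was at 4193 against 3914 CPM in niche and 2558 against 2983 CPM in distal cells. Gbp7 was at 126 against 319 CPM in niche cells and at 466 against 307 CPM in distal ones, in opposite order. No gap in the sum marked the limit.

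**Figure D1:**
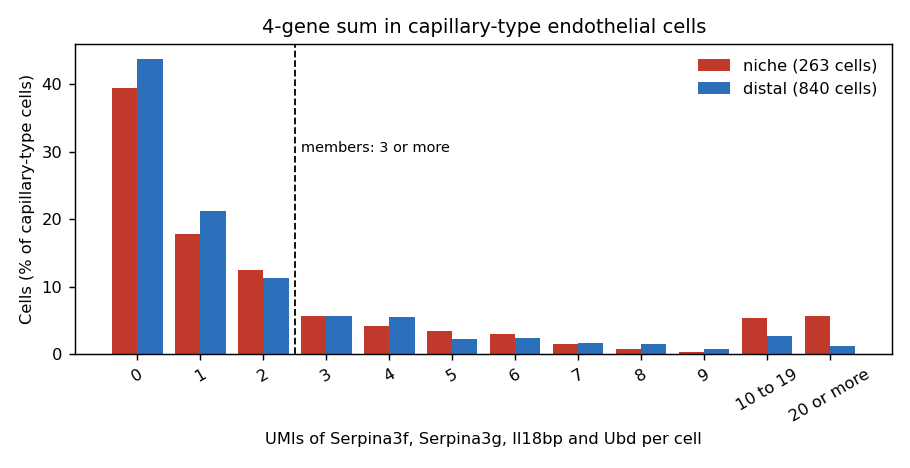
Number of UMIs of Serpina3f, Serpina3g, Il18bp and Ubd per capillary-type endothelial cell (x axis) against the percentage of such cells in each library (y axis), with bars for niche (263 cells) and distal (840 cells) and a dashed line at the membership limit. The bars fall from a sum of 0 across the limit without a gap, and sums of 20 or more were found in 15 niche and 10 distal cells.

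The same 4 genes were also found in the endothelial classes that the rule sets aside, which overlap one another. A 4-gene sum of 3 or more was reached by 50% of niche venous-type cells (25 of 50) and 52.9% of distal ones (54 of 102). It was reached by 30.04% and 23.7% of capillary-type cells, by 24.1% and 14.2% of Car4 Ednrb cells and by 21.7% and 17.9% of arterial-type cells. After thinning, the venous-type shares were 33.3% and 35.6%, the capillary-type shares 18.2% and 19.3%, and the Car4 Ednrb and arterial-type shares between 3.57% and 5.13%. The 4-gene signal was thus not confined to capillaries, and venous-type cells stood highest. In alveolar type 2 cells, taken as a measure of free RNA, the sum reached 3 in 1 of 16 niche cells and in 0 of 214 distal cells, a count of 0 that allows up to 1.40% (3 of 214 cells). Mesenchymal cells reached it in 17.5% of niche (138 of 790) and 0.806% of distal cells (3 of 372).

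Serpina3f and Serpina3g belong to a cluster of serine protease inhibitor genes, Il18bp encodes a secreted decoy that binds interleukin-18, Ubd encodes FAT10, a ubiquitin-like modifier, and Gbp7 encodes a guanylate-binding GTPase. Gbp7 was among the markers but not in the rule. The promoters of these 5 genes are shown because 4 of them make up the sum that defines the cells, the fifth is a marker outside it, and they differ in the letters that interferon-activated factors are known to read. Each line gives the 150 bases before the annotated start, from RefSeq on GRCm38.p6, 5′ to 3′ on the gene's strand. Capitals mark matches, on either strand, to the GAS letters TTCNNNGAA or the ISRE letters GAAA, any 2 bases and GAAA (TTTC, any 2 bases and TTTC on the other strand), and no match overlaps another. The stretches are chr12:104214394-104214543 on the plus strand for the first of 2 Serpina3f entries, chr12:104235997-104236146 on the plus strand for Serpina3g, chr7:102018233-102018382 on the minus strand for Il18bp, chr17:37193742-37193891 on the plus strand for Ubd and chr3:142530186-142530335 on the plus strand for Gbp7.
Serpina3f: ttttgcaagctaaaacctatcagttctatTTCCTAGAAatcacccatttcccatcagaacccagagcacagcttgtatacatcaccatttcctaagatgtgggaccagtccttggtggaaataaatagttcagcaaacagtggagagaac
Serpina3g: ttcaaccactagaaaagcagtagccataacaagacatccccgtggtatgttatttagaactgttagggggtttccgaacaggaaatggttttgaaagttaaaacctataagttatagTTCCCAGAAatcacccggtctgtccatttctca
Il18bp: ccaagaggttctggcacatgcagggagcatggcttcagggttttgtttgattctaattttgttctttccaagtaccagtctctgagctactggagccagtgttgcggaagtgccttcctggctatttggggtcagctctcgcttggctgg
Ubd: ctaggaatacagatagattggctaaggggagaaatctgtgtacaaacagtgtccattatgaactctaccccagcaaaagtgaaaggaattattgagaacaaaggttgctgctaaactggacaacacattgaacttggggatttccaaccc
Gbp7: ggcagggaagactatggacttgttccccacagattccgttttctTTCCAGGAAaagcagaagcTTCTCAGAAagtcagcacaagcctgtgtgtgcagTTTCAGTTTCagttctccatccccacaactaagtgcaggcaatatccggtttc

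Serpina3f held a GAS match starting 121 bases before its start and Serpina3g held one 33 bases before. Gbp7 held 2 GAS matches, 106 and 87 bases before its start, and an ISRE match 53 bases before. No match lay in the 300-base windows of Il18bp and Ubd. Among all 32851 RefSeq promoter windows of that length, 8.30% held a GAS match and 3.44% an ISRE match. The last 30 bases of the Serpina3g window lie in no GENCODE transcript of that gene, and the same holds for the second Serpina3f entry. Start positions were not compared between the annotations. Of genes with a window, 9 of 9 in the GBP and IRG list held an ISRE match, as did 12 of 23 type I interferon antiviral genes, 5 of 19 MHC class I genes and 1 of 12 general capillary genes, against 3.99% of all genes.

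Serpina3g carried most of the 4-gene sum. It was detected in 78 of 79 niche and 189 of 199 distal members, with 629 and 1029 UMIs, or 56.9% and 74.7% of all UMIs of the sum. Serpina3f was detected in 42 and 109 members (78 and 205 UMIs) and Il18bp in 37 and 63 members (68 and 101 UMIs). Serpina3g was the only one of the 4 genes detected in 16 niche and 61 distal members. At 3′ ends, where this chemistry reads, 2.44% of 50-base windows over the last 500 bases of Serpina3g occurred in another gene, and 1.55% of those of Serpina3f, so little of either could be miscounted between them.

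Levels of the marker genes in members were the values that chose them, and are given as a description. Serpina3g stood at 2541 CPM in niche and 2394 CPM in distal members, against 190 and 234 CPM in other capillary-type cells. It stood at 1336 and 1387 CPM in venous-type cells, and between 417 and 577 CPM in Car4 Ednrb and arterial-type cells. Serpina3f was at 315 and 477 CPM in members, and Il18bp at 275 and 235 CPM. Gbp7, outside the rule, was at 618 CPM in niche members (153 UMIs, 58 of 79 cells) and 693 CPM in distal members (298 UMIs, 115 of 199 cells). In other capillary-type cells Gbp7 was at 278 and 253 CPM. Its log2 ratio of members over other capillary-type cells was 1.15 (0.79 to 1.51) in niche and 1.45 (1.21 to 1.70) in distal cells.

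**Figure D2:**
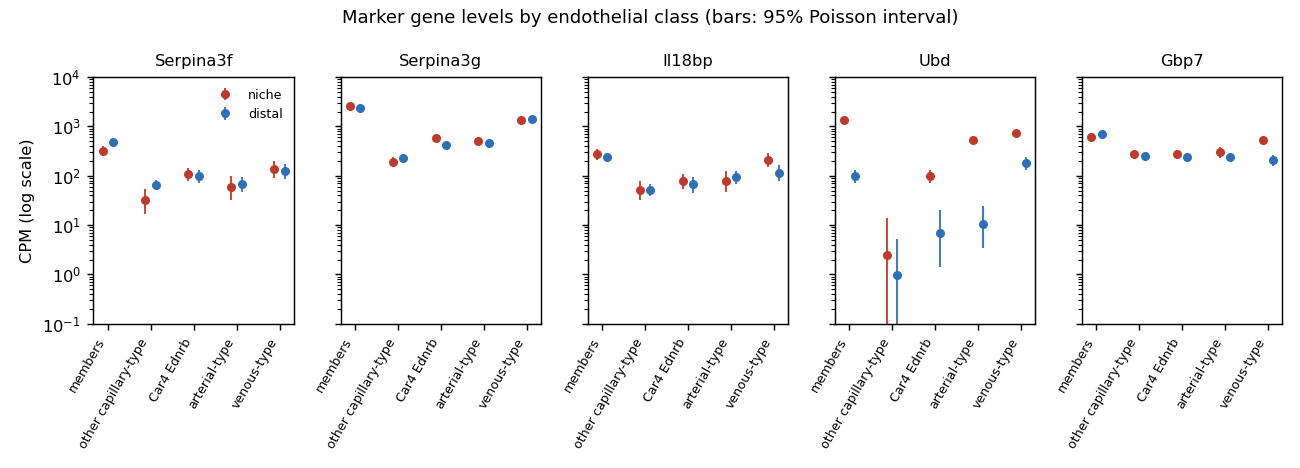
Level of the 5 marker genes (CPM, log axis) in members and 4 other endothelial classes, with points for the niche and distal library and bars for the 95% Poisson interval. Serpina3g in members was 2541 and 2394 CPM, and Ubd was 1333 CPM in niche against 97.7 CPM in distal members.

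Ubd was detected in 21 of 79 niche members (26.6%, 17.3 to 37.7%) and 8 of 199 distal members (4.02%, 1.75 to 7.77%), with 330 and 42 UMIs. With members thinned to 1200 UMIs, 21.5% of 79 niche and 3.31% of 181 distal members still had a Ubd UMI. Ubd made up 29.9% of the sum in niche and 3.05% in distal cells, and the 5 cells richest in it held 65.8% and 88.1% of its UMIs. In the niche, 9 members carried 10 or more Ubd UMIs, 293 in all, against 1 distal member. Ubd hardly decided membership: 77 of 79 niche and all 199 distal members reached a sum of 3 without it. In alveolar type 2 cells it was found in 1 of 16 niche and 0 of 214 distal cells.

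**Figure D3:**
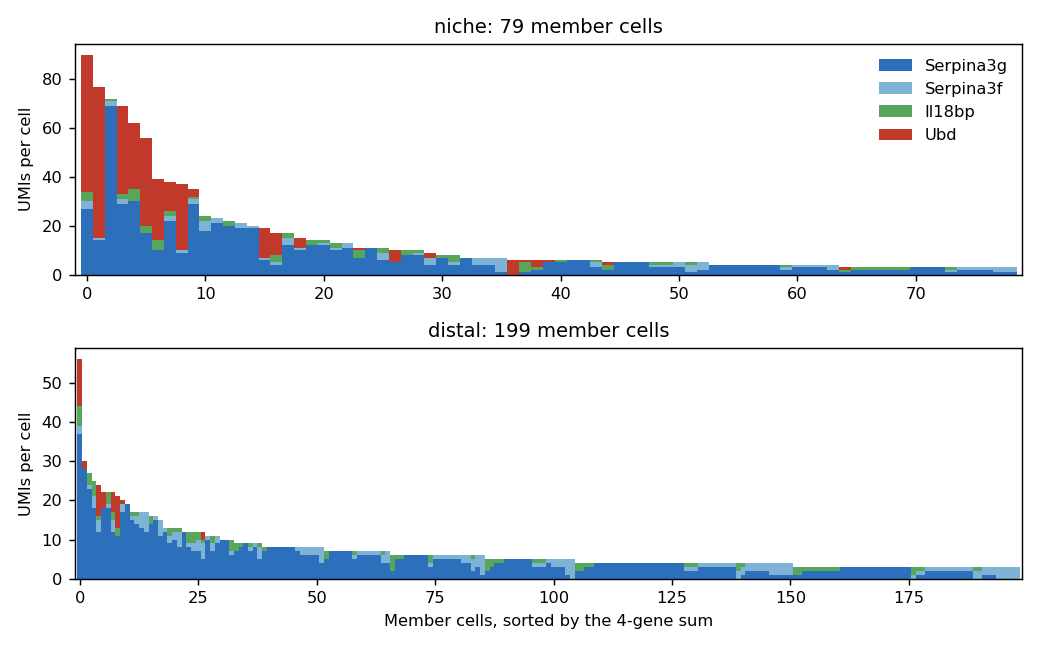
UMIs of Serpina3g, Serpina3f, Il18bp and Ubd stacked per member cell (y axis), with cells sorted by their sum (x axis), for 79 niche members above and 199 distal members below. Ubd makes up much of the tallest niche bars (29.9% of all niche UMIs of the sum), while Serpina3g makes up 74.7% of the distal sum.

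Members carried more transcripts of GBP and IRG GTPases, which attack membranes around intracellular microbes, than other capillary-type cells in both libraries. A gene was called higher or lower if its ratio was at least 2-fold with an interval that excluded equality, given at least 20 UMIs over both sets together. Over all genes, 192 of 4561 (4.21%) were higher and 145 (3.18%) lower in niche members. In the distal library 113 of 7169 (1.58%) were higher and 118 (1.65%) lower. Of the GBP and IRG list, 12 of 13 measured genes were higher in the niche (median log2 ratio 1.77, against -0.11 over all genes) and 14 of 14 in the distal library (1.64, against -0.05). The members were chosen on counts of the same cells, so these counts describe them and test nothing.

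Iigp1, an IRG GTPase, stood at 1749 CPM in niche members against 645 CPM in other capillary-type cells, and at 1415 against 476 CPM in the distal library. Gbp4 was at 1842 against 562 CPM and at 1338 against 522 CPM. Gbp2 was at 743 against 217 CPM in niche and 468 against 100.3 CPM in distal cells. Gbp5, which helps assemble inflammasomes, had log2 ratios of 2.48 (1.68 to 3.41) and 1.71 (1.14 to 2.30). Gbp2b had 2.59 and 2.05, and Igtp, which encodes Irgm3, had 1.89 and 1.74. Ratios of Tgtp1, Tgtp2 and Gbp6 are uncertain because their 3′ ends occur in near-identical genes.

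The genes whose level followed the 4-gene sum most closely included GTPases, MHC class II genes and the antiviral gene Ifitm3. Over 1814 endothelial cells, with each library centred, the 10 highest Pearson correlations among 5240 genes belonged to Iigp1 (0.457), Gbp4 (0.402), Gbp2b (0.387), Cd74 (0.381), H2-Ab1 (0.356), Ifitm3 (0.355), Igtp (0.350), Ifi47 (0.347), Gbp2 (0.342) and Gbp7 (0.340). The cells share 2 libraries and their depths, so the values rank genes and carry no test.

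Most signalling genes of the interferon pathway did not pass the 2-fold limit. Irf1, a transcription factor induced early by interferon, was below the 2-fold limit with log2 ratios of 0.90 (0.58 to 1.22) and 0.68 (0.49 to 0.86). Irf8, an interferon regulatory factor best known in myeloid cells, was at 255 against 56.2 CPM in niche and at 51.2 against 8.60 CPM in distal cells; without cells bearing marks of other types its niche log2 ratio of 2.16 became 3.56. Socs1, a feedback inhibitor of JAK kinases, had ratios of 1.02 and 1.28. Of the list of interferon regulators, 5 of 19 were higher in niche and 6 of 22 in distal cells, none lower.

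Of the antiviral genes of the type I response, some passed the limit in each library. In the niche 17 of 26 measured genes were higher and 0 lower (median 1.29), against 10 of 25 higher and 1 lower, Ifi27l2a, in the distal library (0.89). Rsad2, which encodes viperin, had 84 UMIs in niche members against 8 in other cells, but 1 member held 51.2% of them and the log2 ratio of 4.04 became 1.64 at 1200 UMIs per cell; distal members had 59 against 7, with 33.9% in 1 cell. Ifit3, which blocks viral RNA translation, had ratios of 1.82 and 2.09, Isg15, a ubiquitin-like modifier, 1.44 and 1.05, and Zbp1, a sensor of Z-form nucleic acids, 1.54 and 1.98.

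Most measured antigen presentation genes of MHC class II passed the limit in the niche (5 of 6), and 3 of 7 did in the distal library. Some class I genes passed it, and most class I genes lay above equality without reaching 2-fold. Tap1, a subunit of the peptide transporter, was at 485 against 151 CPM in niche and 347 against 105 CPM in distal cells. B2m, the MHC class I light chain, was already abundant and had log2 ratios of 0.73 (0.65 to 0.80) and 0.44 (0.38 to 0.49). Of the class I list, 6 of 20 genes were higher in niche and 2 of 21 in distal cells, with all of them above a ratio of 0 (medians 0.73 and 0.57). Cd74, the class II invariant chain, was at 7252 against 2691 CPM in niche and at 5321 against 2135 CPM in distal cells. Of the class II list, 5 of 6 and 3 of 7 genes were higher (medians 1.23 and 0.96), H2-Eb1 with ratios of 1.27 and 1.24, and 1 of the 7 in the distal library lay below 0 at -0.34.

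Single chemokine, leukocyte adhesion and checkpoint genes were higher in members, while most genes of these lists did not pass the limit. Of the chemokine list, 3 of 8 were higher and 1, Ccl2, lower in the niche, and 2 of 6 higher in the distal library. Of the leukocyte adhesion list, 2 of 6 and 1 of 8 were higher, and of the immune checkpoint and tolerance list 3 of 6 and 2 of 8, with none lower. Ido1, whose enzyme degrades tryptophan, had 97 UMIs in 26 of 79 niche members and 2 UMIs in the 184 other capillary-type cells (log2 ratio 6.01, 4.43 to 9.39; 3.82 at 1200 UMIs per cell). In the distal library it had 63 UMIs in 21 of 199 members and 10 UMIs in 641 other cells. Cxcl9, a chemokine for CXCR3-bearing T cells, had 329 against 34 UMIs in niche and 71 against 3 in distal cells, where 1 cell held 46.5% of the members' UMIs. Cxcl10, which binds the same receptor, was at 1596 against 203 CPM and at 437 against 34.4 CPM, with 33.0% of the distal members' UMIs in 1 cell. Cd274, which encodes PD-L1, was at 275 against 44.0 CPM in niche and 90.7 against 22.9 CPM in distal cells. Vcam1, an adhesion molecule for leukocytes, had ratios of 3.12 (2.45 to 3.91) and 1.30 (0.85 to 1.75), and 1 distal member held 41.2% of its UMIs. Cxcl9 was also abundant in niche mesenchymal cells, at 1505 CPM, and was found in 5 of 16 niche alveolar type 2 cells at 88.2 CPM, close to the 83.0 CPM of the other capillary-type cells. In niche members it was at 1329 CPM, above that level.

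**Figure D4:**
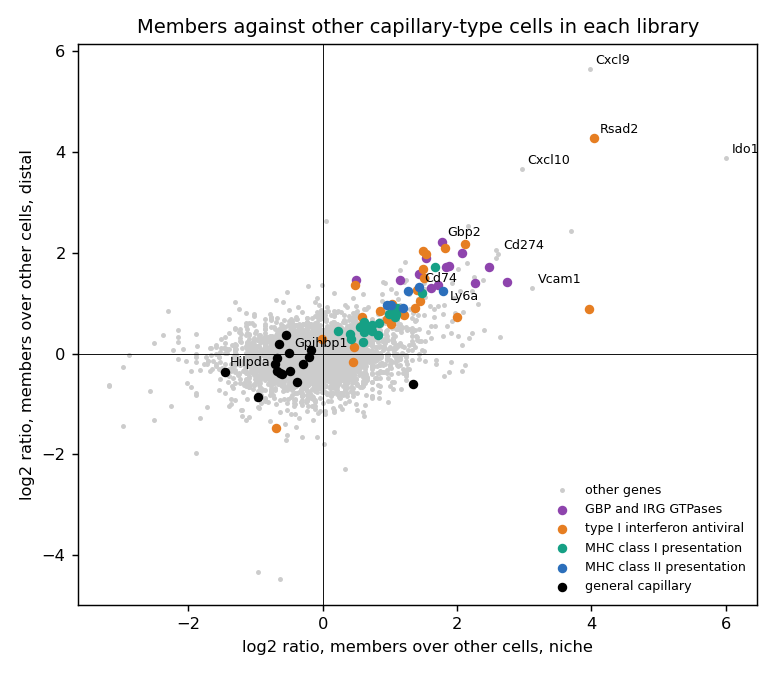
Each point is a gene with its log2 ratio of members over other capillary-type cells in the niche (x axis) and in the distal library (y axis), and coloured points belong to 5 gene lists. GBP and IRG genes lie at positive ratios on both axes (medians 1.77 and 1.64), and general capillary genes lie mostly below 0 (medians -0.58 and -0.28).

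Few general capillary genes passed the 2-fold limit in either direction, and their median lay further below 0 in the niche. Gpihbp1, which carries lipoprotein lipase across capillaries, was at 2704 CPM in distal members against 2674 CPM in other cells (log2 ratio 0.02, -0.08 to 0.12). In the niche it was at 1555 against 2205 CPM (-0.50, -0.68 to -0.33). With cells thinned to 1200 UMIs and reclassified its ratio was 0.00328, but over other sets of cells (62 members and 278 other cells). The part of depth in this change was not tested. Plvap, the protein of endothelial diaphragms, had ratios of -0.17 and 0.07. Hilpda, a regulator of lipid storage, was at 299 against 828 CPM in niche and 961 against 1235 CPM in distal cells. Thbd, which encodes the anticoagulant thrombomodulin, was at 255 against 618 CPM and at 668 against 767 CPM. Of the general capillary list, 1 of 16 genes was higher and 1 lower in the niche (median -0.58), and 0 of 16 were higher or lower in the distal library (-0.28). Of 13 endothelial markers outside the rule, 0 were higher and 1, Erg, was lower in the niche, and 0 were called in the distal library. The respiratory chain list held 0 called genes of 26 in either library.

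Ly6a, the gene of Sca-1 (a cell surface protein), is itself induced by interferon. It stood at 8541 CPM in niche members against 2432 CPM in other capillary-type cells, and at 4530 against 2325 CPM in the distal library.

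Niche members were compared with distal members, a contrast that the rule did not use for genes outside the 4-gene sum. Transcripts of the chemokine genes Cxcl9 and Cxcl10 and of Cd274, Ido1 and Cd40 were higher in the niche. The 21 niche members with Ubd held 300 Cxcl9, 344 Cxcl10, 46 Cd274 and 64 Ido1 UMIs. The 58 niche members without Ubd held 29, 51, 22 and 33. In the distal library the 8 members with Ubd held 67, 123, 11 and 40, and the 191 without held 4, 65, 28 and 23. Of the niche members' Cd40 UMIs, 28.6% lay in 1 cell. The part of the members with Ubd in the ratios between libraries was not tested. Over all genes, 135 of 4620 (2.92%) were higher and 211 (4.57%) lower in niche members, with a median log2 ratio of -0.09. Scaling by the median ratio of genes instead of the sum moved all ratios down by 0.11 and gave 113 higher and 295 lower genes, so the balance of higher and lower calls rests on the scaling. Among other capillary-type cells, which were compared in the same way, 117 of 7144 genes (1.64%) were higher and 177 (2.48%) lower in the niche. The members of the 2 libraries also differ in depth (medians of 2707 and 1914 UMIs).

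The 4 genes of the sum chose the members of both libraries by the same limit, which in part sets their levels, so their ratios between niche and distal members are a description. Serpina3g had a log2 ratio of 0.09 (-0.06 to 0.23) and Serpina3f -0.59 (-0.99 to -0.22). Il18bp stood at 0.23 (-0.24 to 0.68), and Ubd, without which nearly all members still reached the limit, at 3.76 (3.30 to 4.27; 3.94 with members thinned and reclassified). Gbp7, outside the sum, was at -0.16 (-0.46 to 0.12).

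Cxcl9 had a log2 ratio of 3.00 (2.63 to 3.399) between niche and distal members and 4.66 (3.19 to 7.20) between niche and distal other capillary-type cells. Cxcl10 had 1.87 (1.61 to 2.13) and 2.55 (1.98 to 3.17), and Irf8 2.29 (1.59 to 3.09) and 2.66 (1.54 to 4.004). Without cells bearing marks of other types, 20 of 184 niche and 7 of 641 distal other capillary-type cells among them, the ratio in other cells was 4.60 for Cxcl9 (28 against 3 UMIs) and 2.37 for Cxcl10 (63 against 36 UMIs). For these 2 genes the niche levels were thus above the distal ones in both kinds of cell. The Cxcl9 level of niche other capillary-type cells (83.0 CPM) was, however, close to that of niche alveolar type 2 cells, as given above. The part of free RNA in these ratios was not tested. Irf8 then had 5 against 5 UMIs in other cells, a ratio of 1.57 with an interval from -0.55 to 3.69. These are too few UMIs to tell whether it differed there without the marked cells. In members, without the 9 niche members with marks of other cell types, Irf8 fell to 23 UMIs in Ubd-bearing and 16 UMIs in other niche members, from 27 and 36, and its ratio between libraries was 1.84. At 1200 UMIs per cell it was 1.16.

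Vcam1 and Cd40 passed the 2-fold limit between libraries in members and not in other capillary-type cells, but the difference between these ratios was not tested. Vcam1 had 1.13 (0.70 to 1.56) and -0.69 (-1.50 to 0.00), although its ratio in members was 0.26 at 1200 UMIs per cell. Cd40, a receptor for T cell help, had 2.19 (1.27 to 3.27) and -0.16 (-1.23 to 0.75). Cd274 had 1.59 (1.01 to 2.20) in members and lay on the same side in other cells at 0.95 (-0.03 to 1.88; 18 against 24 UMIs), or 0.10 (8 against 23 UMIs) without the marked cells. Ido1 had 1.41 (0.95 to 1.90) in members, with 2 against 10 UMIs in other cells, too few to be compared. Ly6a, under the 2-fold limit, had 0.91 (0.83 to 1.004) in members and 0.07 (-0.04 to 0.17) in other cells. Without the marked cells Ly6a had 1.11 (1.02 to 1.20) in members, past that limit, and 0.25 (0.14 to 0.35) in other cells. Other capillary-type cells were chosen for a low 4-gene sum, so they are not an unselected reference.

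By list, the GTPases differed little between niche and distal members (1 of 14 higher, median 0.28) and so did MHC class I (0 of 21 higher or lower, 0.13) and class II genes (0 of 6, 0.43). Antiviral genes held 5 of 26 higher and 0 lower (0.44), among them Oasl1 (22 against 6 UMIs) and Ifit2 (23 against 9 UMIs). Chemokines held 2 of 6 higher and checkpoint genes 3 of 7. The interferon regulators held 1 higher, Irf8, and 2 lower, the receptor subunit genes Ifnar1 and Il10rb, of 21.

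Several capillary and haemostasis genes were lower in niche than in distal members. Hilpda had a log2 ratio of -1.68 (-2.06 to -1.32) in members and -0.58 (-0.75 to -0.40) in other cells. Thbd had -1.38 (-1.81 to -0.99) and -0.31 (-0.52 to -0.11), and Tek, the angiopoietin receptor TIE2, -1.34 (-1.80 to -0.91) and -0.50 (-0.79 to -0.23); at 1200 UMIs per cell the ratio of Tek in members was -0.57. Vwf, the gene of von Willebrand factor, rested on 4 against 40 UMIs in members (-2.37) and had a like ratio of -2.41 in other cells. Ier3, an early response gene that dissociation can raise, had -1.76 (-1.95 to -1.58) and -0.78 (-0.90 to -0.66), and -1.15 in members at 1200 UMIs per cell. Of the general capillary list, 1 of 16 was higher and 4 were lower (median -0.65), and of the list of immediate early and dissociation genes 1 of 20 was higher and 2 lower (-0.70). The part of dissociation in these ratios was not tested.

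A few genes were higher in niche than in distal members and also in other capillary-type cells of the niche. Ccl21a, a chemokine gene of lymphatic endothelium, had 1361 against 23 UMIs in members (log2 ratio 6.65) and 3500 against 1277 in other cells (2.81). Without the cells bearing marks of other types it had 9 against 23 (-0.28) and 11 against 190 UMIs (-2.48). Lgals1, a galectin gene, had 145 UMIs against 4, but 1 niche member held 61.4% of its UMIs, its ratio of 5.81 became 2.20 at 1200 UMIs per cell, and its ratio in other cells was 4.43 (3.83 to 5.14). The matrix protein gene Mgp had ratios of 2.90 in members and 2.11 in other cells. The club cell gene Scgb1a1 had 2.495 and 1.75. Of the mesenchymal markers 3 of 3 measured genes were higher in niche members, with Pdgfra and Pdgfrb at 0 UMIs there; their summed level over 15 listed markers was 1547 CPM in niche members and 1028 CPM in niche other capillary-type cells. The part of free RNA in these ratios was not tested.

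**Figure D5:**
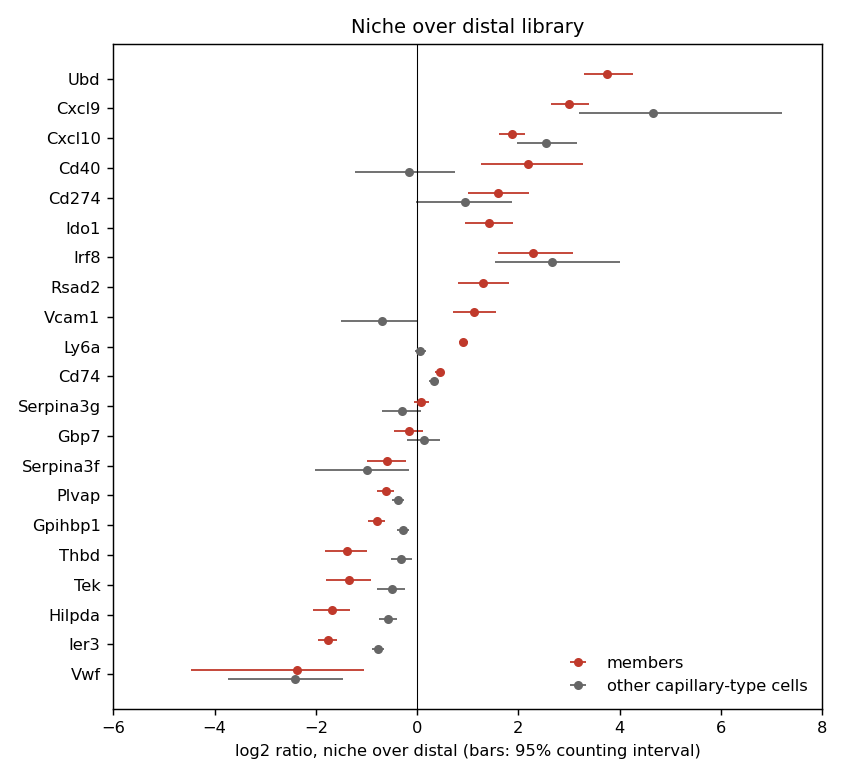
Log2 ratio of niche over distal (x axis) for 21 genes, with bars for the 95% counting interval, in members and in other capillary-type cells where at least 20 UMIs were present. Ubd lies at 3.76 and Serpina3g at 0.09 in members, and Ly6a at 0.91 in members against 0.07 in other cells.

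Members with a Ubd UMI were described apart from those without, as a group chosen by a rule gene after its values were known. They were deeper, with a median of 4273 UMIs against 2371 in the niche (21 and 58 cells) and 4755 against 1881 in the distal library (8 and 191 cells). In the niche 140 of 2030 genes (6.90%) were higher and 234 (11.5%) lower with Ubd. In the distal library 144 of 3471 (4.15%) were higher and 113 (3.26%) lower, a set of 8 cells. Serpina3g was at 2592 against 2512 CPM in niche and 4131 against 2246 CPM in distal cells.

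Cxcl9 was at 3323 CPM in niche members with Ubd and at 184 CPM in those without, and at 1977 against 10.1 CPM in the distal library. It was detected in 20 of 21 against 12 of 58 niche members. Ido1 was at 709 against 210 CPM and at 1180 against 58.1 CPM, and it was detected together with Ubd in 15 of the 21 niche members and 7 of the 8 distal members. Vcam1 had log2 ratios of 3.17 (2.45 to 4.05) and 3.18 (2.51 to 3.82), Cd274 1.85 and 2.24, and Ly6a 1.25 and 1.34. The collagen IV gene Col4a1 had 1.15 (0.68 to 1.63) and 1.30 (0.72 to 1.81), and the progenitor and tip cell marker gene Cd34 1.41 and 1.66. In both libraries the levels of these genes were thus higher in the members with Ubd, which were also the deeper cells. The summed level of immune markers, 6 of 25 of which were listed in both tables, was also higher with Ubd. It was 443 CPM (40 UMIs) with Ubd against 197 CPM without in niche members. In distal members it was 915 CPM (31 UMIs) against 205 CPM. Coro1a and Cd52 were at 0 with Ubd in both libraries, and Cd68 and Fcer1g also in the distal one. Plac8, expressed in several leukocyte types, gave most of the summed UMIs with Ubd. It was higher with Ubd in both, with 14 of 22 niche and 20 of 23 distal UMIs in 1 cell each. The single immune-marked niche member had no Ubd UMI. The part of immune transcripts in these ratios was not tested.

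Several capillary genes were lower in members with Ubd. Gpihbp1 was at 36 UMIs in 21 niche members with Ubd and 349 UMIs in 58 without (log2 ratio -2.46, -3.01 to -1.98), and at -0.64 (-1.05 to -0.28) in the distal library. Sema3c, a secreted guidance factor, had -2.99 and -2.88, Thbd -3.31 and -2.43, Hilpda -2.37 and -1.24, and Ier3 -2.16 and -2.26. Of the general capillary list, 9 of 15 genes were lower with Ubd in the niche and 0 higher (median -1.40), and 2 of 16 were lower in the distal library (-0.68). Of endothelial markers, 8 of 12 were lower in the niche, and 2 of 13 lower and 1 higher in the distal library. Without the 9 marked cells the niche ratio of Gpihbp1 was -2.55 (-3.12 to -2.06), that of Cxcl9 5.53 (4.70 to 6.67) and that of Ido1 1.69 (1.07 to 2.36).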

How the data were processed

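Raw UMI counts per gene and cell were deposited by the authors, 1 table per library; the lowest total of a listed gene is 10 UMIs in the niche table and 12 in the distal table. Libraries were made with Chromium 3′ chemistry and sequenced on a HiSeq for about 50000 reads per cell, per the labels' protocols. Cell Ranger 2.1.1, R 3.4.1 and mm10 are named in the submitters' processing notes. Reads were not used here.

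Cells were classified by the rule, and members and gene lists were chosen with earlier results of these data known. UMIs were summed over cells and scaled to the sum over the 10198 genes listed in both tables. Log2 ratios add 0.5 UMI, with exact conditional binomial 95% intervals; shares have exact Clopper-Pearson intervals (a count of 0 is given the limit that 3 counts allow) and levels exact Poisson intervals, all covering counting error only. With 1 library per group no test between groups was possible, and cells are not replicates. Genes named are the 12 highest and 12 lowest per comparison with at least 30 UMIs by the interval bound nearest equality, up to 4 per gene list, and fixed markers; from these, genes were selected after their values were seen. Other list members and the genes of the Ubd comparison were chosen after their values were seen. Doublets were called with Scrublet in scanpy 1.11.5 (10 niche and 27 distal cells) and kept. Ratios were checked on simulated counts. Ratios at 1200 UMIs per cell come from cells thinned and then reclassified. Their members and other capillary-type cells are therefore not the same sets as in the main ratios. Promoter windows are from RefSeq, and 5 of 5 marker genes matched. Python 3.11.15, numpy 2.4.6, scipy 1.17.1 and pandas 2.3.3 were used. Alternatives tried were a 4-gene sum of at least 4, the sum without Ubd, at least 1000 genes, thinning to 1200 UMIs, removal of doublets or of immune-marked cells, median-ratio scaling, no minimum or at least 50 UMIs per gene, and, added later, removal of cells with lymphatic, haemoglobin or immune marks.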

Additional observations from a re-analysis of the deposited data

Results flagged for a closer look

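Some genes were listed in the niche table only, so they entered no comparison between libraries, yet had UMIs in niche members. AA467197 had 117 UMIs in 15 niche members, 115 of them in 14 members with Ubd, against 5 UMIs in the 184 other capillary-type cells (log2 ratio 5.13, 3.997 to 6.91). Ccl5, the gene of a T cell chemokine, had 206 UMIs in 15 members against 7 in other cells, but 149 of them lay in the single immune-marked cell and 52 in 9 members with Ubd. Saa3, an acute phase gene, had 23 UMIs in 12 members against 18 UMIs in other cells (log2 ratio 1.06, 0.11 to 2.04), and 5759 UMIs in niche mesenchymal cells.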

How the results depend on the processing

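Members were 12.7% of niche endothelial cells with cells thinned to 1200 UMIs; of distal endothelial cells they were 11.5% with a 4-gene sum of at least 4 and 17.7% with at least 1000 genes per cell. With thinning, the numbers of genes higher and lower in niche members than in other capillary-type cells were 127 and 94, and between niche and distal members 67 and 83. With at least 50 UMIs per gene they were 104 and 51 for the niche, 58 and 50 for the distal library, and 54 and 95 between libraries, and without a minimum 223 genes were higher in niche than in distal members. These filters change how many genes are tested. At 1200 UMIs, 49 results of named genes were counted as moved, 2 as reversed and 86 as the same. Of the list medians, 18 were counted as moved and 56 as the same. Gpihbp1 changed to 0.00328 for niche members over other cells, and Kit to 0.32 for distal members over other cells. Thinning changed both the depth and, by reclassifying, the sets of cells, and the cause was not tested. Without cells bearing lymphatic, haemoglobin or immune marks, Ccl21a changed from -0.64 to 0.44 for niche members over other cells and from 6.65 to -0.28 between libraries. Marked cells held most of its UMIs in both niche sets. Without them, 1361 UMIs became 9 in members and 3500 became 11 in other capillary-type cells. Without Ubd in the sum, without doublets and without immune-marked cells, each share and count of genes lay within its limit of change. No paired analysis was possible because each group is 1 library. Depth limits low genes: the minimum behind a call was 20 UMIs, and the niche members numbered 79.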
